A study of Mus musculus with 13 samples.

Results

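The translation initiation factor genes of the mouse were followed in newly made kidney RNA after loss of the transporter gene Spns1 and after iron loading. They were taken as every row of the estimated-count table whose symbol begins with Eif1 to Eif6, leaving out the Eif2ak kinases and rows marked as pseudogenes, which gave 70 of the 35013 rows. The study asked whether proximal tubules without SPNS1, a protein of the late endosome and lysosome, respond like tubules loaded with iron. The 13 libraries came from female mice in 3 groups, all carrying the tamoxifen-inducible Cre of the Megalin3'Cre-Ert driver and 1 floxed allele of Uprt, an enzyme that tags new RNA with thiouracil where Cre is active. The Spns1 KO group (n = 4) carried floxed Spns1 on both alleles. In the WT group (n = 5) and the FeO group (n = 4) the label reads Spns1 WT, whereas the methods give them 1 floxed Spns1 allele. The FeO mice received 12 mg of iron sucrose a day by injection for 3 days and were killed 1 week later. The labels name this model dietary although they too describe injections, and the methods count the 12 mg as elemental iron. Age was not given. The driver is meant to confine deletion and tagging to cells that express megalin.

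Initiation factors bring a ribosome to the start codon of an mRNA. eIF2 carries the initiator tRNA, and eIF2B recharges eIF2 with GTP, a step that stress kinases block by phosphorylating eIF2. eIF3, the largest of the factors, holds the small ribosomal subunit and the mRNA together. eIF4E binds the mRNA cap, eIF4G is its scaffold, eIF4A is the helicase that opens the leader, and the 4E-BP proteins hold eIF4E back until mTORC1 phosphorylates them. eIF1, eIF1A and eIF5 control scanning and start codon choice, and eIF5B and eIF6 act where the large subunit joins. mTORC1 is itself controlled at the lysosome.

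Library totals ran from 23068023 to 71296474 estimated counts. Values below are CPM, each library's counts per 1000000, scaled with TMM factors that ranged from 0.8459 to 1.123. The targeted gene did not check the labels. Spns1 was at 39.3 to 62.9 CPM in WT, 36.6 to 59.0 CPM in the libraries labelled Spns1 KO and 39.0 to 58.7 CPM in FeO, so the groups overlapped, and the counts cover the whole gene while the floxed allele loses a single exon. The proximal tubule markers summed to 3600 to 4950 CPM in WT, 7600 to 8960 CPM in Spns1 KO and 2520 to 6030 CPM in FeO. No listed marker of another cell type was at 0 over the libraries. In FeO, where members rose, the 4 principal cell markers summed to 409 to 1060 CPM against 209 to 367 CPM in WT and 186 to 333 CPM in Spns1 KO, and the 4 podocyte markers to 245 to 582 CPM against 134 to 242 CPM in WT and 194 to 247 CPM in Spns1 KO. The 4 fibroblast markers summed to 47.9 to 77.6 CPM in WT, 85.1 to 126 CPM in Spns1 KO and 40.4 to 97.1 CPM in FeO. The 5 leukocyte markers summed to 37.6 to 55.3 CPM in WT, 124 to 174 CPM in Spns1 KO and 52.6 to 210 CPM in FeO. The part of these shifts in the results below was not tested, and in bulk RNA fewer cells of a type and less RNA per cell cannot be told apart. The library Spns1 KO 4 stood apart from the other 3 of its group at many of the members, so the counts and medians of this group, and its calls, are also given without it.

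Of the 70 genes, 51 had enough counts to be tested, and the counts and medians below are over those 51. The other 19 were 16 Eif1ad copies with at most 20 counts over all libraries, Eif4a3l1 with 0, Eif4a3l2 with 2 and the Y-linked Eif2s3y with 40. Each gene was tested by the quasi-likelihood method of edgeR with Benjamini-Hochberg adjustment over the 16468 genes tested, and it was called at an adjusted p below 0.05 together with a log2 change of more than 0.5 up or down. Separate animals are implied but not stated by the labels, so the p-values measure the spread between these samples.

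Initiation factor transcripts rose broadly in iron-loaded tubules. In FeO against WT, 29 of the 51 were called higher, against 22.4% of all tested genes, and 2 were called lower, Eif3a and Eif4e1b, against 19.7% of all genes. The median log2 fold change of the 51 was 0.55, and of all genes -0.01. In Spns1 KO against WT, 7 of the 51 were called higher, a share of 13.7% beside 14% of all genes, and 0 were called lower, beside 7.55% of all genes. DESeq2 also called 0 lower, and 3 members, Eif1a, Eif4enif1 and Eif5a2, were lower at an unadjusted p below 0.05 in edgeR. The median of the 51 was 0.16, and that of all genes -0.05. Without Spns1 KO 4 the median of the 51 was 0.29, still beside -0.05 for all genes. The 7 were Eif3f, Eif3k, Eif3h, Eif3m, Eif3i, Eif3g and Eif5a, all of which were also called higher in FeO. The 2 comparisons share the 5 WT libraries. Directly between the models, 1 member, Eif3a, was called higher in Spns1 KO than in FeO, beside 6.76% of all genes, and 9 were called lower, beside 8.1%.

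**Figure D1:**
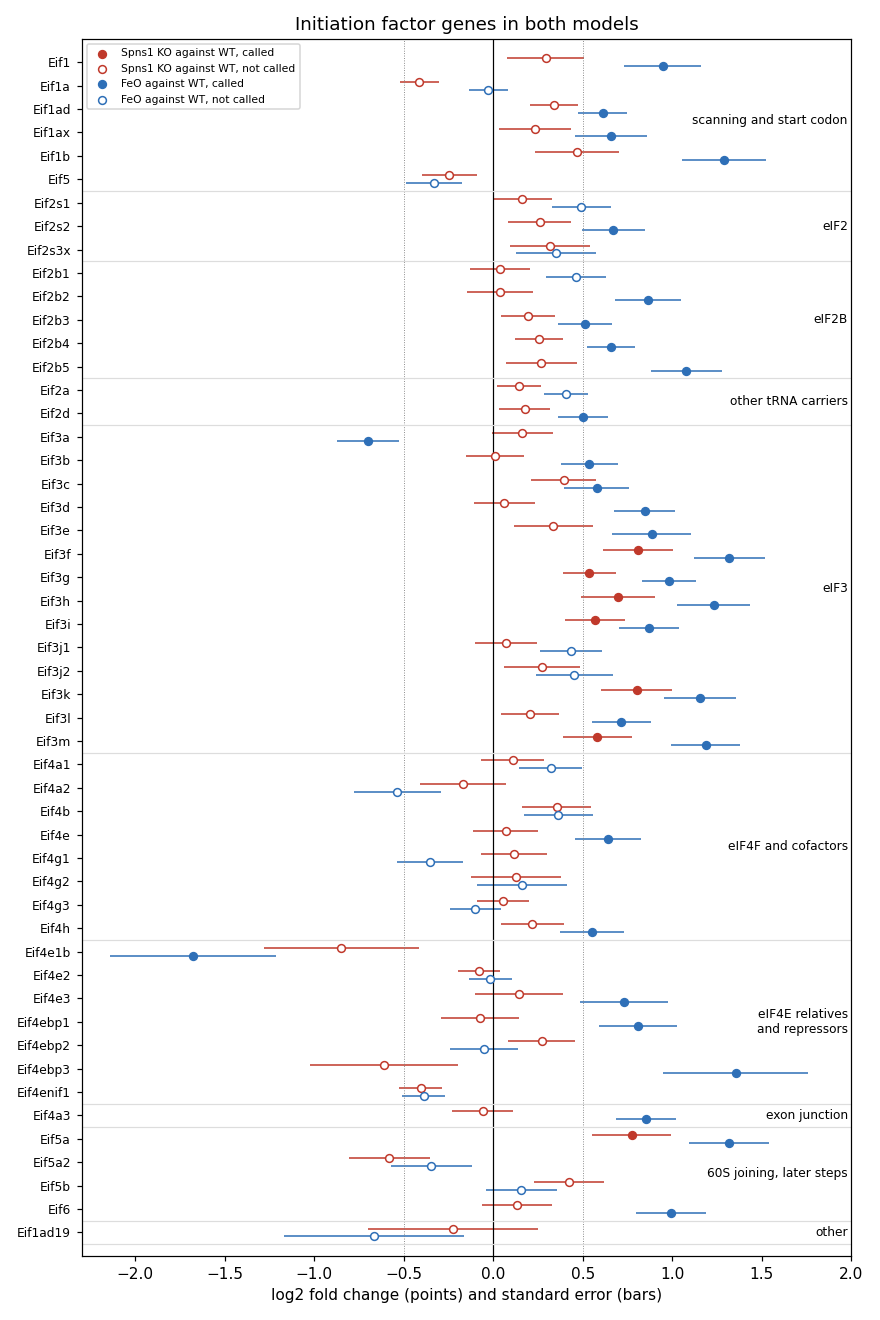
Log2 fold change with its standard error for the 51 tested initiation factor genes, grouped by role, in Spns1 KO against WT (red) and FeO against WT (blue), with filled points for called genes and dotted lines at the fold threshold. Most blue points lie to the right of the red point of the same gene, and Eif3a lies at -0.70 in FeO while the other eIF3 genes lie above 0.

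The eIF3 complex held 11 of the 29 genes that rose in FeO and 6 of the 7 that rose in Spns1 KO. In FeO, 11 of its 14 genes were called higher, beside 22.4% of all genes. Eif3a was called lower, beside 19.7%, and the pair encoding eIF3j, a loosely bound subunit, was not called. In Spns1 KO, 6 of the 14 were called higher, beside 14%. Of these, Eif3g, Eif3h, Eif3i, Eif3k and Eif3m have transcripts of 909 to 1295 bases. Of all genes up to 1500 bases, 35.9% were called higher in Spns1 KO. With each library corrected for a trend on transcript length and GC content, 8 of the 14 were called higher in FeO and 1 in Spns1 KO. Those 8 were 7 of the 11 and Eif3j1. The median log2 fold change of the 14 was 0.86 in FeO and 0.36 in Spns1 KO, and in Spns1 KO it was 0.51 without Spns1 KO 4.

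Eif3a encodes the largest subunit, the scaffold on which the rest of the complex assembles. It was at 346, 344, 412, 408 and 318 CPM in WT, 483, 377, 393 and 382 CPM in Spns1 KO, and 180, 190, 255 and 277 CPM in FeO. Every FeO library was below every WT and every Spns1 KO library, while WT and Spns1 KO overlapped. The means were 366 ± 42.2 CPM (SD, n = 5) in WT, 409 ± 49.9 CPM (SD, n = 4) in Spns1 KO and 225 ± 47.8 CPM (SD, n = 4) in FeO. Eif3a fell by 0.70 on the log2 scale in FeO (SE 0.17, adjusted p = 0.00494), and in Spns1 KO its log2 fold change was 0.16 (SE 0.17, adjusted p = 0.51). The difference between the models was 0.86 (SE 0.18, adjusted p = 0.00843). The FeO call held without each of the 13 libraries, at -0.79 to -0.59. It was lost once each library had been corrected for a trend on transcript length and GC content (-0.38, adjusted p = 0.0506), whereas the difference between the models was still called in that fit (0.81, adjusted p = 0.00463).

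The ratio of Eif3a to the other large subunits was also lower in FeO. It uses the same Eif3a values, and Eif3b (0.54) and Eif3c (0.58) themselves rose in FeO on the log2 scale. Ratios here and below are not corrected for the length trend, and Eif3a, at 5125 bases, is longer than Eif3b at 2945 and Eif3c at 3383. Eif3b carries an RNA-binding domain and Eif3c contacts eIF1 and eIF5. Eif3a stood at 2.66, 2.82, 3.46, 3.59 and 2.83 times Eif3b in WT, 3.61, 3.54, 2.92 and 3.62 times Eif3b in Spns1 KO, and 0.763, 1.26, 1.56 and 1.92 times Eif3b in FeO. Against Eif3c the ratio was 2.17 to 2.84 in WT, 1.68 to 2.51 in Spns1 KO and 0.591 to 1.60 in FeO. Both ratios were lower in each FeO library than in any other library. None of the 31-base stretches of the Eif3a transcript was shared with another transcript, and Eif3a overlaps no other annotated gene. Ndrg1, an iron-responsive gene whose translation the study linked to eIF3a, was at 2895 to 5621 CPM in WT, 2450 to 4876 CPM in Spns1 KO and 2085 to 8137 CPM in FeO. Its groups overlapped, and its log2 fold change was -0.02 (SE 0.35, adjusted p = 0.978) in Spns1 KO and 0.24 (SE 0.35, adjusted p = 0.584) in FeO. The study reported lower NDRG1 protein in Spns1 knockout kidneys. These values are of RNA, and neither protein nor translation was measured in these libraries.

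**Figure D2:**
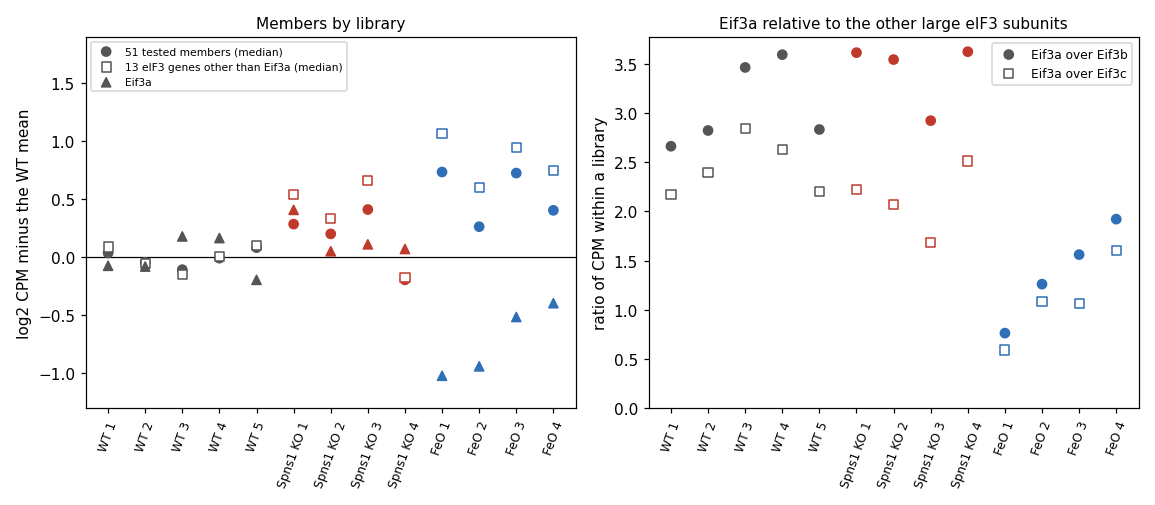
Left, the median over the 51 tested members, the median over the 13 eIF3 genes other than Eif3a, and Eif3a itself in each library, as log2 CPM minus the WT mean; right, the ratio of Eif3a to Eif3b and to Eif3c in each library. In FeO the other eIF3 genes lie at 0.60 to 1.07 and Eif3a at -1.02 to -0.40, and Spns1 KO 4 lies at -0.18 for the other eIF3 genes while the other Spns1 KO libraries lie at 0.33 to 0.66.

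Within eIF3, the largest rises in both models were those of Eif3f, Eif3h, Eif3k and Eif3m. Eif3f and Eif3h encode the paired MPN-domain subunits. Eif3f was at 27.1, 25.3, 24.5, 27.0 and 30.96 CPM in WT, 52.6, 47.6, 60.5 and 28.2 CPM in Spns1 KO, and 84.8, 52.7, 72.9 and 58.6 CPM in FeO. All FeO libraries and 3 of the 4 Spns1 KO libraries exceeded every WT library. Its log2 fold change was 0.81 (SE 0.20, adjusted p = 0.00934) in Spns1 KO and 1.32 (SE 0.20, adjusted p = 0.00045) in FeO. Eif3f was the single member called higher in Spns1 KO under each setting tried, including removal of the length trend (0.77, adjusted p = 0.00825). That removal takes the longest annotated transcript of each gene, 2514 bases for Eif3f, and whether tubules mainly make a shorter one was not tested. Eif3h was at 31.6, 29.3, 26.8, 27.2 and 34.1 CPM in WT, 54.9, 54.2, 58.2 and 25.8 CPM in Spns1 KO, and 87.8, 59.8, 71.4 and 60.7 CPM in FeO. Here Spns1 KO 4 was below every WT library while the other 3 were above. Eif3h rose by 0.70 (SE 0.20, adjusted p = 0.0242) in Spns1 KO and by 1.23 (SE 0.21, adjusted p = 0.000618) in FeO on the log2 scale. Without Spns1 KO 4 the Spns1 KO changes were 0.99 for Eif3f and 0.905 for Eif3h. Other transcripts hold 37.4% of the 31-base stretches of Eif3h, so its reads are less certain than those of Eif3f, where the share is 0.403%.

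Eif3k and Eif3m encode subunits of the outer ring that share the PCI fold. Eif3k was at 17.04, 15.1, 11.7, 11.9 and 14.9 CPM in WT, 25.96, 28.0, 29.5 and 15.1 CPM in Spns1 KO, and 36.9, 26.5, 35.6 and 27.0 CPM in FeO. Eif3m was at 40.2, 37.3, 35.0, 42.4 and 45.6 CPM in WT, 60.2, 59.6, 80.0 and 40.0 CPM in Spns1 KO, and 104, 67.1, 112 and 81.7 CPM in FeO. In both genes Spns1 KO 4 fell inside the WT range and no FeO library did. Eif3k changed by 0.80 (SE 0.20, adjusted p = 0.0103) in Spns1 KO and 1.16 (SE 0.20, adjusted p = 0.00067) in FeO, and Eif3m by 0.58 (SE 0.19, adjusted p = 0.0393) and 1.19 (SE 0.19, adjusted p = 0.00055). Without Spns1 KO 4 the Spns1 KO changes were 0.98 for Eif3k and 0.73 for Eif3m. Reads of Eif3m are uncertain, with 53.7% of its 31-base stretches shared with other transcripts, and its Spns1 KO call held in 6 of the 13 fits that leave out 1 library.

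Eif3g and Eif3i sit with Eif3b in the module near the mRNA entry channel. Eif3g was at 30.9, 29.9, 23.2, 20.6 and 30.5 CPM in WT, 41.2, 39.9, 42.2 and 33.5 CPM in Spns1 KO, and 56.1, 48.0, 59.8 and 49.5 CPM in FeO. Eif3g was the only member whose 4 Spns1 KO libraries all exceeded the WT libraries, and the share of all genes that do so was not counted. Its log2 fold change was 0.54 (SE 0.15, adjusted p = 0.0182) in Spns1 KO and 0.98 (SE 0.15, adjusted p = 0.000461) in FeO. Eif3i was at 22.98, 21.6, 19.1, 17.5 and 21.9 CPM in WT, 33.3, 33.0, 34.7 and 21.2 CPM in Spns1 KO, and 46.5, 31.1, 37.4 and 35.8 CPM in FeO. It rose by 0.57 (SE 0.17, adjusted p = 0.0246) and by 0.87 (SE 0.17, adjusted p = 0.00115). Without Spns1 KO 4 the Spns1 KO changes were 0.61 for Eif3g and 0.71 for Eif3i. In that fit the count of members called higher in Spns1 KO was 10, adding Eif1b, Eif3e and Eif4b to the 7, beside 18% of all genes. Of the 51, 1 member, Eif4e1b, was called lower there, beside 16.1% of all genes. Without any 1 of the other 3 Spns1 KO libraries it was 2, Eif3f and Eif3k, beside 9.18% to 9.91% of all genes, and without WT 3 it was 3, beside 10.6%.

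Eif3b and Eif3d, a cap-binding subunit, were called higher in FeO and differed between the models. Eif3b was at 130, 122, 119, 114 and 113 CPM in WT, 134, 107, 135 and 106 CPM in Spns1 KO, and 236, 150, 163 and 144 CPM in FeO. Eif3d was at 52.3, 44.9, 40.2, 40.1 and 55.7 CPM in WT, 51.8, 51.7, 55.8 and 35.3 CPM in Spns1 KO, and 90.2, 92.8, 89.1 and 62.9 CPM in FeO. For both genes Spns1 KO lay across the WT range and FeO lay above it. Eif3b had log2 fold changes of 0.01 (SE 0.16) in Spns1 KO and 0.54 (SE 0.16, adjusted p = 0.0144) in FeO, and Eif3d of 0.06 (SE 0.17) and 0.84 (SE 0.17, adjusted p = 0.00144). The Spns1 KO minus FeO difference was -0.53 (SE 0.17, adjusted p = 0.0482) for Eif3b and -0.78 (SE 0.18, adjusted p = 0.0119) for Eif3d. With 1 library left out, the Eif3b difference was called only without WT 4, FeO 2 or FeO 4. It was also not called with the length trend removed (-0.496, adjusted p = 0.0409), under the replicate block, with no filter or with only the 2 groups compared. The Eif3b rise was not called with the length trend removed (0.45, adjusted p = 0.0275), with library totals, under the replicate block (0.49) or without FeO 1 (0.37). The remaining subunits Eif3c, Eif3e and Eif3l were called higher in FeO at 0.58, 0.88 and 0.72 and were not called in Spns1 KO. The Eif3c call was lost without FeO 1 (0.41), and 42.0% of the 31-base stretches of Eif3e are shared with other transcripts. Eif3j1 and Eif3j2 were uncalled at 0.44 and 0.45 in FeO, and Eif3j1 was called higher there with the length trend removed (0.78, adjusted p = 0.00464). These genes could not be separated with certainty. In Eif3j2, 94.9% of the 31-base stretches occur in other transcripts, Eif3j1 first among them.

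Bases around the annotated start sites show how members that moved alike differ in their first transcribed bases. A pyrimidine run at the start, the feature of ribosomal protein mRNAs whose translation follows mTORC1, is shown in capitals for members of eIF3, eIF2 and eIF2B that have one, and Eif3a and Eif3k are shown for contrast. Each window holds 15 bases before and 15 from the start, from RefSeq on GRCm38.p6, read along the gene's strand. In order they are chr7:108934400-108934429 (+), chr15:79075208-79075237 (+), chrX:94212637-94212666 (-), chr16:20498802-20498831 (+), chr19:60790679-60790708 (-) and chr7:28981874-28981903 (-).
Eif3f: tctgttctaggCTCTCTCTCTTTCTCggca
Eif3l: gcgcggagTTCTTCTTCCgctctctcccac
Eif2s3x: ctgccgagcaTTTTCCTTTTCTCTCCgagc
Eif2b5: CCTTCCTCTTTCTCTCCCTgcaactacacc
Eif3a: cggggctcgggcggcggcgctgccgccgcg
Eif3k: aaaacaaccggcgctggtgctgaaagcgcc
A run of at least 6 pyrimidines reaching within 3 bases of an annotated start was found for 7 of the 38 tested members with a listed promoter, or 18.4%, beside 18% of all genes and 42.6% of cytosolic ribosomal protein genes. Of the 6 genes shown, Eif3f, Eif3l, Eif2b5 and Eif3k were called higher in FeO, Eif2s3x was not called and Eif3a was called lower, so both kinds of start were present among the genes that rose.

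The letters CACGTG, the E-box that MYC and the TFEB family can bind and which reads the same on both strands, occurred within 250 bases before to 50 bases after a start in 10 of the 38 members (26.3%) and in 8.09% of all genes. The member promoters had a median GC content of 62.7%, beside 52.7% for all promoters. It was found in 3 of the 10 eIF3 promoters listed, shown here with the motif in capitals at chr19:60790654-60790683 (-), chr7:108934335-108934364 (+) and chr7:28981915-28981944 (-).
Eif3a: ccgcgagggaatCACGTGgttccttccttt
Eif3f: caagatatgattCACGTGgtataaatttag
Eif3k: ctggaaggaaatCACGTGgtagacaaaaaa
By the RefSeq starts, the motif begins 23 bases into the transcript of Eif3a, and 68 and 44 bases before the starts of Eif3f and Eif3k. The GENCODE M21 annotation starts Eif3a and Eif3k further along the strand, Eif3a at 60790658, by which its motif lies before the start. GENCODE starts Eif3l at 79075179 and Eif2s3x at 94212862, both upstream of the windows shown above. The start windows of Eif3a, Eif3k, Eif3l and Eif2s3x thus hold for RefSeq only. The same letters were thus present in the member that fell in FeO and in a pair that rose, and no binding was measured. TGACGTCA, the full cyclic AMP response element, was found in 0 of the 50 member promoters and in 1.79% of all promoters.

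eIF2B, the exchange factor that recharges eIF2, rose in FeO, where 4 of its 5 genes were called higher, beside 22.4% of all genes. In Spns1 KO 0 of 5 were called by edgeR or DESeq2, and 0 had an unadjusted p below 0.05 there. The medians of the 5 were 0.66 and 0.19 on the log2 scale, and in Spns1 KO the median was 0.25 without Spns1 KO 4. Eif2b5 encodes the catalytic subunit. It was at 32.2, 29.9, 29.3, 36.5 and 33.7 CPM in WT, 45.3, 38.6, 48.0 and 23.7 CPM in Spns1 KO, and 86.4, 59.3, 75.9 and 51.2 CPM in FeO. All FeO libraries exceeded all others, and Spns1 KO had 3 libraries above the WT range and 1 below it. Its log2 fold change was 1.08 (SE 0.20, adjusted p = 0.000883) in FeO and 0.27 (SE 0.20, adjusted p = 0.338) in Spns1 KO, with a difference of -0.81 (SE 0.21, adjusted p = 0.0199). Without Spns1 KO 4 the Spns1 KO change was 0.445, uncalled (adjusted p = 0.0477, under the fold threshold). Eif2b2, of the regulatory core, was at 21.97, 19.7, 17.6, 17.1 and 21.5 CPM in WT, 22.04, 21.96, 22.1 and 14.1 CPM in Spns1 KO, and 42.2, 39.9, 36.1 and 24.1 CPM in FeO. Again only FeO left the WT range on the high side, apart from narrow excesses of 2 Spns1 KO libraries, and the changes were 0.86 (SE 0.18, adjusted p = 0.00202) in FeO and 0.04 (SE 0.18, adjusted p = 0.903) in Spns1 KO. The models differed by -0.83 (SE 0.20, adjusted p = 0.0134). With the length trend removed, the FeO call of Eif2b2 was not kept (0.449, adjusted p = 0.032). Eif2b3, the partner of Eif2b5 in the catalytic part of the complex, was at 15.7, 14.0, 11.4, 11.6 and 14.1 CPM in WT, 13.6, 17.9, 16.3 and 13.3 CPM in Spns1 KO, and 17.9, 17.4, 21.5 and 19.2 CPM in FeO. It rose in FeO by 0.51 (SE 0.15, adjusted p = 0.0137), near the fold threshold, and the call was lost without WT 3, WT 4 or FeO 3, at 0.45 at the lowest. That call was also lost with upper-quartile factors or library totals.

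Of the 3 genes of eIF2, the substrate of eIF2B, 1 was called higher in FeO, beside 22.4% of all genes. With the length trend removed it was 2, beside 2 of the 5 eIF2B genes and 19.1% of all genes in that fit. The median of the 3 was 0.49 in FeO and 0.56 with the trend removed, where that of eIF2B was 0.45. Eif2s1 encodes the alpha subunit, on which the stress kinases place their phosphate. It was at 43.3, 41.2, 37.3, 39.5 and 40.4 CPM in WT, 47.0, 47.2, 54.8 and 31.4 CPM in Spns1 KO, and 59.3, 45.6, 70.7 and 51.2 CPM in FeO. Every FeO library was above WT, but at 0.49 (SE 0.16, adjusted p = 0.0243) the change stayed under the fold threshold, which it passed with the trend removed (0.615, adjusted p = 0.00978). Of the other subunits, Eif2s2 was called higher in FeO at 0.67 and Eif2s3x, the X-linked gamma subunit, was not called at 0.35. Sequence shared with other transcripts made up 32.1% of Eif2s2 and 36.9% of Eif2s3x. The alternative tRNA carriers Eif2a and Eif2d were at 0.40 and 0.50, and only Eif2d was called. It was at 22.4, 22.1, 19.4, 23.2 and 22.04 CPM in WT, 27.1, 24.5, 26.3 and 20.6 CPM in Spns1 KO, and 38.0, 27.5, 30.7 and 27.4 CPM in FeO, with no overlap between FeO and WT. At 0.502 its change sat at the fold threshold, and its call was lost with upper-quartile factors, library totals, the replicate block or the trend removed, and without WT 3 or FeO 1.

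Among the scanning factors, 4 of 6 were called higher in FeO, beside 22.4% of all genes, and 2 with the length trend removed, beside 19.1%. In Spns1 KO 0 were called higher by edgeR or DESeq2, and Eif1ad (higher) and Eif1a (lower) had an unadjusted p below 0.05 in edgeR. Eif1b, a near copy of the start-codon fidelity factor Eif1, was at 19.6, 15.6, 13.7, 12.8 and 20.04 CPM in WT, 24.5, 24.3, 29.1 and 12.7 CPM in Spns1 KO, and 40.4, 38.0, 52.9 and 28.4 CPM in FeO. FeO lay above WT, and Spns1 KO reached from below the WT range to above it. The log2 fold change was 1.29 (SE 0.23, adjusted p = 0.000858) in FeO and 0.47 (SE 0.23, adjusted p = 0.157) in Spns1 KO, and the models differed by -0.82 (SE 0.25, adjusted p = 0.0384). Without Spns1 KO 4 it was called in Spns1 KO as well, at 0.67 (adjusted p = 0.0188). Eif1, Eif1ax and Eif1ad also rose in FeO, by 0.95, 0.66 and 0.61, and the Eif1ax call was lost without FeO 3 (0.54) and under the replicate block. With the length trend removed, Eif1 (0.48, adjusted p = 0.0338) and Eif1ad (0.46, adjusted p = 0.00669) fell under the fold threshold and were not called. Eif1a, a paralog of Eif1ax, was at -0.03 in FeO and -0.41 in Spns1 KO, where it had an adjusted p of 0.0142 but stayed under the fold threshold with all 4 Spns1 KO libraries below WT. The ratio of Eif1a to Eif1ax was 0.976 to 1.52 in WT, 0.661 to 1.17 in Spns1 KO and 0.643 to 1.04 in FeO. Eif5, the GTPase activator of eIF2, was not called in either model, at -0.33 in FeO and -0.25 in Spns1 KO, although each of its FeO and Spns1 KO libraries was below WT.

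Of the cap-binding and helicase genes, 2 of 8 were called higher in FeO, Eif4e and Eif4h, beside 22.4% of all genes, and 0 in Spns1 KO by edgeR or DESeq2 or at an unadjusted p below 0.05. Their median in FeO was 0.24, and 0.43 with the length trend removed, their transcripts being longer (median 4422.5 bases) than those of eIF3 (1920.5 bases) and eIF2B (2025 bases). Eif4e, the cap-binding protein, was at 73.1, 66.8, 67.4, 76.6 and 76.2 CPM in WT, 78.7, 76.9, 94.2 and 52.4 CPM in Spns1 KO, and 133, 90.2, 139 and 87.3 CPM in FeO. All FeO libraries were above WT, and the log2 fold change was 0.64 (SE 0.18, adjusted p = 0.011) in FeO and 0.07 (SE 0.18, adjusted p = 0.809) in Spns1 KO. Its scaffold Eif4g1 was at 444, 448, 511, 572 and 364 CPM in WT, 620, 448, 549 and 411 CPM in Spns1 KO, and 455, 339, 358 and 312 CPM in FeO. Those groups overlapped, and Eif4g1 was not called at -0.35 (SE 0.19, adjusted p = 0.131) in FeO or 0.12 (SE 0.18, adjusted p = 0.669) in Spns1 KO. The helicase genes Eif4a1 and Eif4a2 were at 0.32 and -0.54 in FeO, both uncalled, and the ratio of Eif4a2 to Eif4a1 was 1.15 to 1.38 in WT, 0.767 to 1.69 in Spns1 KO and 0.409 to 1.02 in FeO. Reads of Eif4a1 are uncertain, since 67.5% of its 31-base stretches are shared with other transcripts. Eif4h, the cofactor of eIF4A, rose in FeO by 0.55 (SE 0.18, adjusted p = 0.0206), a call lost when either of 2 libraries was left out, at 0.44 at the lowest. That call was also lost with the length trend removed (0.42, adjusted p = 0.0587). Eif4b, Eif4g2 and Eif4g3 were not called in either model, though Eif4g2 was called higher in FeO with the length trend removed (0.75, adjusted p = 0.0212).

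**Figure D3:**
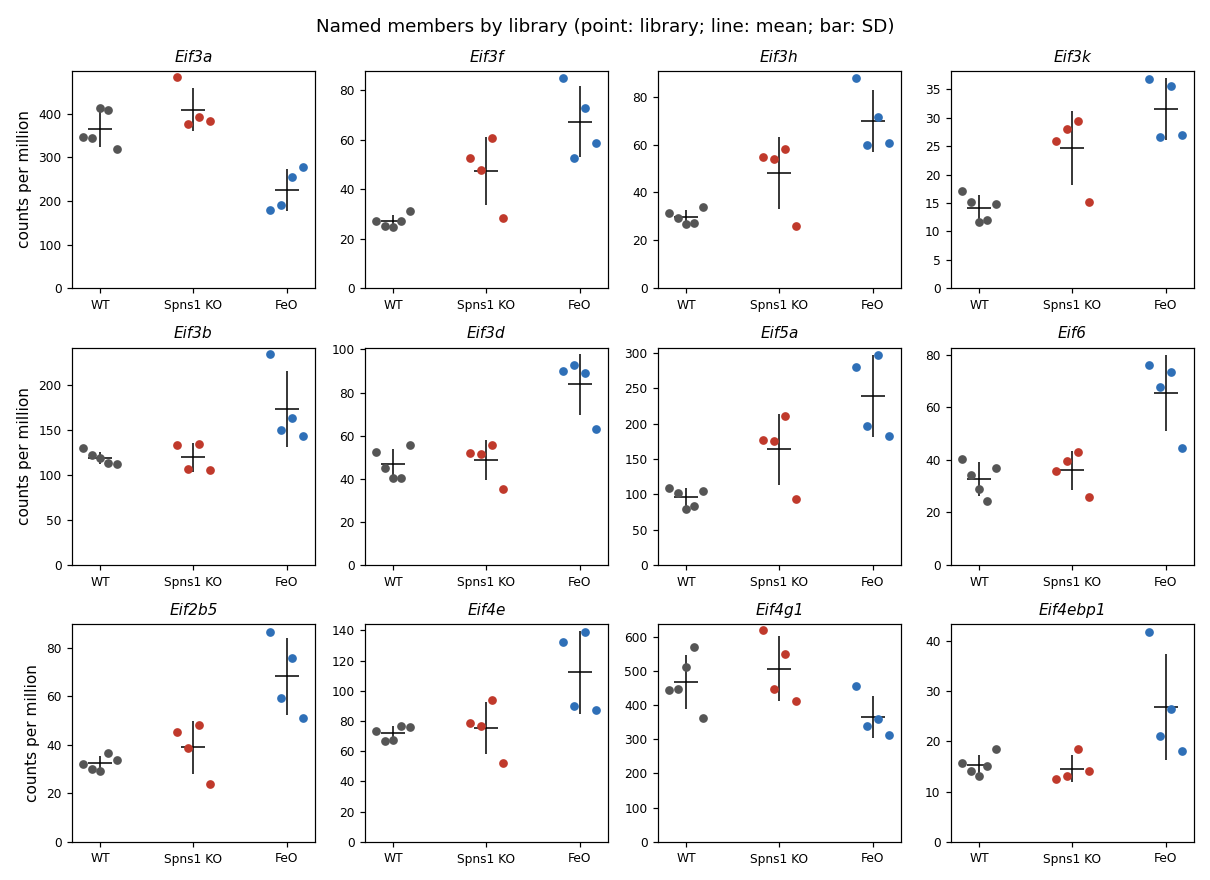
CPM of 12 named members in each library (points), with the group mean (line) and SD (bar), on axes that start at 0. Eif3a is lowest in FeO, and 9 other panels have every FeO library above every WT library. The share of all genes so separated was not counted. FeO overlaps WT for Eif4ebp1 and Eif4g1, and Spns1 KO 4 is the lowest Spns1 KO point in most panels.

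Of the 3 genes for 4E-BP repressors, 2 were called higher in FeO, beside 22.4% of all genes. Eif4ebp1, the best known mTORC1 substrate of the group, was at 15.7, 14.1, 13.2, 15.2 and 18.5 CPM in WT, 12.4, 13.2, 18.5 and 14.2 CPM in Spns1 KO, and 41.8, 21.0, 26.5 and 18.1 CPM in FeO. A single FeO library reached into the WT range. The gene rose in FeO by 0.81 (SE 0.22, adjusted p = 0.00808), was at -0.08 (SE 0.22, adjusted p = 0.824) in Spns1 KO, and differed between the models by -0.89 (SE 0.23, adjusted p = 0.021). Without FeO 1 its FeO change was 0.53. Eif4ebp3 was at 45.2, 38.6, 19.1, 15.2 and 46.7 CPM in WT, 18.2, 23.7, 18.3 and 26.1 CPM in Spns1 KO, and 32.7, 97.4, 159 and 47.4 CPM in FeO. WT reached from below the Spns1 KO libraries to just under the third highest FeO library, while Spns1 KO and FeO did not overlap, with a difference of -1.96 (SE 0.44, adjusted p = 0.0114). In FeO against WT it rose by 1.35 (SE 0.41, adjusted p = 0.0145), with 66.4% of its 31-base stretches shared with another transcript. That call was lost with the length trend removed (0.86, adjusted p = 0.0839) and without FeO 3, its highest library (0.845, adjusted p = 0.0884). Eif4ebp2, the remaining gene of this family, was at -0.05 in FeO and 0.27 in Spns1 KO, so the ratio of Eif4ebp1 to Eif4ebp2 was 0.0415 to 0.0773 in WT, 0.0295 to 0.0591 in Spns1 KO and 0.0771 to 0.141 in FeO.

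Of the eIF4E relatives, Eif4e3 rose in FeO by 0.73 (SE 0.25, adjusted p = 0.0253), with overlapping groups. The call was lost without WT 1, WT 2, FeO 1, FeO 3 or FeO 4 and under the replicate block, and an annotated gene on the same strand overlaps Eif4e3. Eif4e1b, an oocyte form at 1.12 to 1.96 CPM in WT, was at 0.131 to 0.908 CPM in FeO and 0.462 to 1.42 CPM in Spns1 KO. It fell by 1.68 on the log2 scale in FeO (SE 0.46, adjusted p = 0.00946), from levels near the lower limit of the test. Eif4enif1, the eIF4E transporter, was below WT in every library of both models, at -0.39 (adjusted p = 0.0174) in FeO and -0.41 (adjusted p = 0.0255) in Spns1 KO, under the fold threshold. Eif4e2 was at -0.02 and -0.08.

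At the later steps, Eif5a rose in both models and Eif6 in FeO. Eif5a carries hypusine and acts in elongation at difficult sequences. It was at 109, 102, 79.2, 83.7 and 105 CPM in WT, 176, 175, 210 and 93.0 CPM in Spns1 KO, and 279, 197, 297 and 182 CPM in FeO. Only Spns1 KO 4 of the Spns1 KO and FeO libraries fell inside the WT range. The changes were 0.77 (SE 0.22, adjusted p = 0.0214) in Spns1 KO, or 0.97 without Spns1 KO 4, and 1.32 (SE 0.22, adjusted p = 0.000644) in FeO. The paralog Eif5a2 was at -0.58 (SE 0.23, adjusted p = 0.0735) and -0.35 (SE 0.23, adjusted p = 0.217), and its ratio to Eif5a was 0.140 to 0.332 in WT, 0.0662 to 0.116 in Spns1 KO and 0.0431 to 0.0848 in FeO. Both models thus lay below the WT range of that ratio in every library. The ratio is not corrected for length, and Eif5a2, at 5027 bases, is longer than Eif5a at 1437. Once the length trend was removed, the Eif5a2 changes became -0.17 (Spns1 KO) and 0.21 (FeO), both uncalled. For Eif5a the Spns1 KO change fell to 0.41 (adjusted p = 0.132), uncalled. Its FeO change of 0.86 (adjusted p = 0.00422) was still called. The part of length in the ratio was not tested. Eif6, which keeps the large subunit from joining too soon, was at 40.5, 34.1, 28.7, 24.2 and 37.0 CPM in WT, 35.6, 39.5, 43.1 and 25.97 CPM in Spns1 KO, and 76.1, 67.9, 73.5 and 44.4 CPM in FeO. It rose in FeO by 0.99 (SE 0.20, adjusted p = 0.00134), was at 0.13 (SE 0.20, adjusted p = 0.653) in Spns1 KO, and differed by -0.86 (SE 0.21, adjusted p = 0.0146). Eif5b, the joining GTPase, was not called, at 0.42 in Spns1 KO and 0.16 in FeO. With the length trend removed it was called higher in Spns1 KO (0.79, adjusted p = 0.0183) and in FeO (0.70, adjusted p = 0.0178).

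Eif4a3, a helicase of the exon junction complex and not of initiation itself, was at 42.9, 40.6, 34.7, 33.6 and 52.8 CPM in WT, 40.3, 41.9, 43.0 and 31.9 CPM in Spns1 KO, and 81.9, 77.8, 81.6 and 53.8 CPM in FeO. FeO exceeded the other groups in every library. The log2 fold change was 0.85 (SE 0.17, adjusted p = 0.00134) in FeO and -0.06 (SE 0.17, adjusted p = 0.821) in Spns1 KO, and the difference between the models of -0.91 (SE 0.18, adjusted p = 0.00625) had the smallest adjusted p of the 51. In its transcript, 44.8% of the 31-base stretches are shared with other transcripts. Its FeO call was not kept with the length trend removed (0.42, adjusted p = 0.0198).

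The models were compared directly for each member. Of the 51 tested members, 42 were lower in Spns1 KO than in FeO by the fitted change, beside 7915 of the 16468 genes tested. All 29 genes that rose in FeO were among the 42. They were picked for high FeO values, so that direction was largely built in. Of the 29, 9 passed the test of the difference. Those that passed were Eif1b, Eif2b2, Eif2b5, Eif3b, Eif3d, Eif4a3, Eif4ebp1, Eif4ebp3 and Eif6. None of the 7 genes that rose in both models was among them, at differences of -0.61 to -0.30, and for the other 13 genes called in FeO alone a difference between the models was not shown. Over all 51, the count called lower in Spns1 KO than in FeO was 7 without Spns1 KO 4, 6 without Spns1 KO 1 and 5 without Spns1 KO 2. It was 4 without FeO 1, 15 without FeO 2 and 14 without FeO 4. Of all genes, 5.67%, 4.71%, 4.58%, 3.81%, 9.77% and 9.52% were called lower in those fits. Eif3m, one of the 7 that rose in both models, was among them without FeO 2, without FeO 4 or without Spns1 KO 3. The 14 without FeO 4 include Eif2b1, which is not of the 29. Eif2b2, Eif3d, Eif4a3 and Eif4ebp3 were among those called lower in Spns1 KO than in FeO whichever library was left out.

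Change followed transcript length among the members, as it did over all genes. Over the 50 tested members with an annotated transcript, Spearman's rho between log2 fold change and length was -0.75 in FeO and -0.27 in Spns1 KO, beside -0.43 and -0.39 over the 16187 genes with a length. The points share the same libraries and normalization, and genes are not independent replicates. All 10 members with transcripts up to 1500 bases were called higher in FeO, as were 48.3% of all genes of that length. In the next class, up to 3000 bases, it was 14 of 21 members and 30.7% of all genes, in the one up to 5000 bases 4 of 10 members and 12.5%, and over 5000 bases 1 of 9 members and 3.3%. In Spns1 KO the calls were 6 of 10 in the shortest class, where 35.9% of all genes were called higher, and 1 of 21 in the next, where 16.5% were. Eif3a, at 5125 bases, is one of the 9 long members, a class in which 46% of all genes were called lower in FeO and Eif3a was the only member that was.

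**Figure D4:**
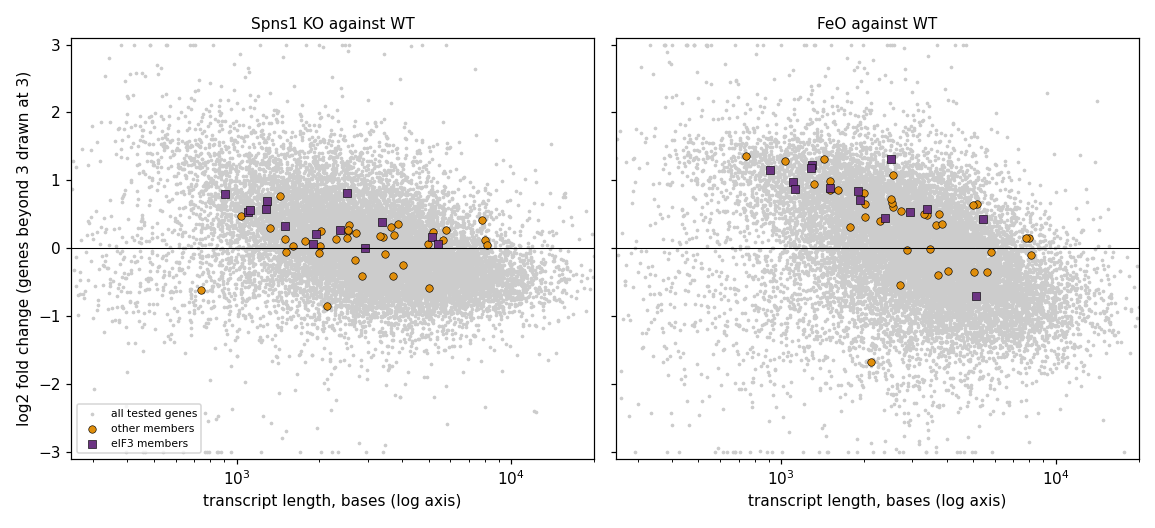
Log2 fold change against transcript length (log axis) for all tested genes (grey), eIF3 members (purple squares) and other members (orange circles) in Spns1 KO and FeO against WT. In FeO the members run from high change at short transcripts toward 0 at long ones, with Eif3a at 5125 bases and -0.70, whereas in Spns1 KO most members lie near 0 beyond 1500 bases.

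With the trend on length and GC content removed from each library, the members' median was 0.47 in FeO (all genes 0.03) and 0.15 in Spns1 KO (all genes 0.00), and rho with length over the members was -0.15 and 0.48. In FeO, 21 members were called higher in that fit, beside 19.1% of all genes, among them 8 of the 14 eIF3 genes and 2 of the 5 eIF2B genes, and 1 was called lower, Eif4e1b. Eif4e, at 4991 bases, went the other way from most and reached 1.02 (adjusted p = 0.00311), and Eif1ax reached 1.14 (adjusted p = 0.00255). In Spns1 KO, Eif3f and Eif5b were called higher, and the eIF3 calls of Eif3g, Eif3h, Eif3i, Eif3k and Eif3m were not kept. The call of Eif5a was not kept either. The cause of the length trend was not tested.

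In unchallenged tubules the members covered a wide range. Per kilobase of transcript, the highest WT levels were those of Eif4a1 at 162 ± 26.5 CPM per kb (SD, n = 5), Eif5 at 154 ± 17.8, Eif1 at 151 ± 39.5 and Eif4a2 at 136 ± 21.97, neighbours that do not differ beyond their spread. Eif4g2, a scaffold of cap-independent initiation, followed at 122 ± 29.2 CPM per kb and Eif4g1 at 82.9 ± 13.9. Within eIF3, whose subunits occur once each in the complex, and apart from the eIF3j pair, WT levels ran from 71.4 ± 8.23 CPM per kb for Eif3a through 44.2 ± 2.09 for Eif3c and 40.6 ± 2.37 for Eif3b to 15.6 ± 2.499 for Eif3k and 10.7 ± 0.993 for Eif3f. In FeO, Eif3a was at 43.9 ± 9.33 and Eif3f at 26.8 ± 5.75 CPM per kb (SD, n = 4), so the highest and the lowest of these subunits in WT were closer together. The cap-binding Eif4e stood at 14.4 ± 0.944 CPM per kb in WT, and Eif4ebp2 at 49.0 ± 8.38, Eif4ebp3 at 44.3 ± 19.9 and Eif4ebp1 at 7.67 ± 1.00. Per-kilobase levels use the longest annotated transcript of each gene and would be higher for a gene that mainly makes a shorter one.

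Other genes of the pathway did not all move with the factors. For the counts below, 22.4% of all genes were called higher and 19.7% lower in FeO, and 14% and 7.55% in Spns1 KO. Median transcript length ran from 4419 bases for the kinase and phosphatase genes to 886 bases for the ribosomal protein genes. The part of length in the changes of these lists was not tested. Of the 6 genes for the eIF2 kinases and the phosphatase subunits that reverse them, 1 was called higher and 3 lower in FeO, and 0 higher and 2 lower in Spns1 KO. The heme-sensing kinase Eif2ak1 rose in FeO by 0.60 (SE 0.17, adjusted p = 0.0119) and was at -0.02 in Spns1 KO, a difference of -0.62 (adjusted p = 0.0359). Eif2ak3, the kinase of the endoplasmic reticulum, fell by 0.62 in FeO (adjusted p = 0.00397) and by 0.78 in Spns1 KO (adjusted p = 0.00234) on the log2 scale. Eif2ak4, the amino acid sensor, fell by 0.85 in Spns1 KO (adjusted p = 0.00541) and was at -0.49 in FeO, Eif2ak2 fell by 0.65 in FeO, and the phosphatase subunit Ppp1r15b fell by 0.73 in FeO. Among 10 elongation and termination genes, 5 were called higher and 1 lower in FeO and 4 higher and 0 lower in Spns1 KO, led by Eef1b2, an exchange factor of elongation, at 1.09 and 1.04. Of 11 poly-A binding proteins and regulators of the cap complex, 2 were called higher and 3 lower in FeO, and 0 higher and 1 lower in Spns1 KO. Larp1, which binds the pyrimidine starts of ribosomal protein mRNAs, fell by 0.65 in FeO (adjusted p = 0.00264), and Mknk2, a kinase of eIF4E, fell by 0.63 in FeO and 0.64 in Spns1 KO. Of 8 further helpers, 4 were called higher and 1 lower in FeO, and 1 higher and 0 lower in Spns1 KO. Denr, a recycling factor, rose in both, by 1.06 and 0.96, and the helicase Ddx3x fell by 1.02 in FeO. The 90 cytosolic ribosomal protein genes had median log2 fold changes of 1.12 in FeO and 1.34 in Spns1 KO, with 79 and 78 called higher. In Spns1 KO their median was thus far above the 0.16 of the initiation factors. With the length trend removed, the medians of the 89 with a length were 0.695 in FeO and 0.938 in Spns1 KO, beside 0.466 and 0.153 for the initiation factors.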

How the data were processed

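The authors deposited estimated counts per gene for all 13 libraries of thiouracil-tagged, streptavidin-purified, poly-A selected kidney RNA, which were rounded to whole numbers. Per the labels' processing notes, kallisto 0.44.0 and the GRCm38 build were used, whereas the methods describe alignment and read counting, so the origin of the counts is uncertain. Counts were fitted in edgeR 4.0.16 (R 4.3.3) with filterByExpr, TMM factors and the quasi-likelihood test, all 3 groups in one fit and no covariate, and tested on simulated data first. Alternatives were other scalings, DESeq2 1.42.0, no filter, 2 groups at a time, a replicate block, a length and GC trend (mgcv 1.9.3) and each library left out. Lengths, sequence sharing and overlaps came from GENCODE M21. Members, role groups and gene lists were chosen with earlier results of these data known. Library values were given for 7 fixed members, for the 4 largest and 4 smallest called changes in each model among members averaging at least 100 counts, and for members called between the models. Replicate numbers did not pair the samples, and no columns were identical.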

Additional observations from a re-analysis of the deposited data

Results flagged for a closer look

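For the 22 members given by library, 66 sets of values were examined for a lone library, and 6 had one. Chance gives about 1 in 20. In Spns1 KO, Spns1 KO 1 was high for Eif3a at 483 CPM, and Spns1 KO 4 was low for Eif3h at 25.8 CPM, Eif3i at 21.2 CPM and Eif2b2 at 14.1 CPM. In FeO, FeO 4 was low for Eif3d at 62.9 CPM and Eif4a3 at 53.7 CPM. The cause of these values was not tested.

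The effects of the 2 models against WT differed by test for 10 members, which amounts to the Spns1 KO minus FeO log2 difference since both share the WT libraries. Eif3a was the one with a positive difference, at 0.86. The negative differences were -0.53 for Eif3b, -0.78 for Eif3d, -0.81 for Eif2b5, -0.82 for Eif1b, -0.83 for Eif2b2, -0.86 for Eif6, -0.89 for Eif4ebp1, -0.91 for Eif4a3 and -1.96 for Eif4ebp3.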

How the results depend on the processing

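None of the changes called for the 22 members given by library changed sign under the alternatives. Of their uncalled changes, 8 did in at least 1, each in Spns1 KO and at most 0.131 in size: Eif2b2, Eif3b, Eif3d, Eif4a3, Eif4e, Eif4ebp1, Eif4g1 and Eif6, with Eif6 going from 0.13 to -0.25 and Eif2b2 from 0.04 to -0.27 with the trend removed. Library totals moved the all-gene median in Spns1 KO from -0.05 to -0.18. Counts of members called higher in Spns1 KO fell from 7 (14% of all genes) to 3 (10.6%) with library totals alone, to 2 (11.4%) with the length and GC trend removed and to 1 (7.16%) with that trend and the replicate block, and ranged from 2 to 10 with 1 library left out. Those called lower in Spns1 KO rose from 0 to 3 with library totals alone (Eif1a, Eif4enif1 and Eif5a2) and to 1 with only the 2 groups compared (Eif5a2), and ranged from 0 to 1 with 1 library left out. In FeO, 29 called higher (22.4% of all genes) became 19 (15.2%) with the trend and the replicate block, and 24 to 32 with 1 library left out. The 2 called lower became 1 with the trend removed, with or without the replicate block, and 2 to 4 with 1 library left out, where 4 came without FeO 4 (Eif1ad19 and Eif4a2 added). Between the models, 9 called lower became 5 with only the 2 groups compared and 4 to 15 with 1 library left out, and the 1 called higher, Eif3a, held in each.

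Same-numbered libraries correlated at -0.296 to 0.256 in their deviations from group means, so numbers were not taken to pair samples. The replicate block alone gave 6 called higher in Spns1 KO and 25 in FeO. Of 31 FeO calls, 23 held without each library and 18 with the trend removed.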
